A study of Danio rerio with 6 samples.

Results

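The genes of oxidative phosphorylation were examined in trunk and tail muscle of runzel mutant zebrafish and of their wildtype siblings. A gene was taken as a member when the single gene symbol of its probe set, in the platform annotation, began with nduf, with sdh and a letter from a to d, with uqcr, cyc1 or cycs, with cox and a digit from 4 to 8, or with atp5. This rule uses names and no measured value, and it found 87 genes, on 94 probe sets, among the 8793 genes with a symbol of their own on the array. Complex I held 39 of these genes, complex II 7, complex III 8, complex IV 14 and complex V 18, and the remaining member was cycsb, a cytochrome c gene. Assembly factors whose symbols begin with ndufaf or sdhaf were kept with complexes I and II and are described apart from the subunits. Expression was read as linear signal on Affymetrix zebrafish arrays, 3 of runzel mutants, a line whose series title names a titin mutation, and 3 of wildtype siblings. All larvae were collected between 3 and 3.5 days after fertilization, when the phenotype becomes visible, and every sample title gives 3.5 days. Each array carried RNA of pooled dissected muscle with the head, heart and gut removed. The series' design states that mutants and siblings were matched by clutch and that there were 3 clutches. The zygosity of the mutants and of the siblings, and the number of larvae in a pool, are not given in the sources used here.

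Oxidative phosphorylation takes place in the inner membrane of the mitochondrion. Complex I oxidises NADH and complex II oxidises succinate, both pass electrons to ubiquinone, complex III hands them on to cytochrome c, and complex IV delivers them to oxygen. Complexes I, III and IV pump protons, and complex V, the ATP synthase, lets them flow back and makes ATP. In muscle this system supplies sustained contraction, and slow fibres are richer in mitochondria than fast fibres. Every complex other than complex II joins subunits encoded in the nucleus with subunits encoded by mitochondrial DNA. Of 13 mitochondrially encoded subunit genes listed, 0 were found by symbol on the array, so all values below are of nuclear genes.

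Median signals of the 6 arrays lay between 602.1 and 672.35. The 12 skeletal muscle marker genes found on the array ranked from percentile 97.74 to 99.98 of all probe sets, and all 3 heart markers found were too dim for testing. Among markers of other tissues, epidermis genes were lower in runzel, with 9 of 9 tested markers below 0 and 5 of them passing the paired test described below. Their summed signal was 240310 to 291510 in runzel and 283360 to 332840 in wildtype siblings, and the dimmest of them, agr1, ranked at percentile 61.2, so none was near 0. Over all tested probe sets, 0.473% passed as lower in the paired test. Of 7 liver and gut markers tested, 4 passed as lower and 1, cpa5, lay above 0 (difference 0.36). Together the liver and gut markers summed to 146040 to 163000 in runzel and 195910 to 211230 in wildtype siblings. Red blood cell markers, 1 of 6 passing as lower and 2 above 0, summed to 97555 to 130640 in runzel and 113750 to 159980 in wildtype siblings. Not every tissue list fell. Of 6 neural markers 3 lay below 0 and 3 above, and of 3 notochord and cartilage markers 1 lay below and 2 above. None of these passed. The slow-fibre myosin gene smyhc1, the one slow-muscle marker tested, read 33049, 36537 and 35524 on the runzel arrays, against 20597, 34817 and 30391 on the wildtype arrays, higher in all 3 pairs with overlap, and did not pass (difference 0.33, limma adjusted p = 0.218 with the paired fit). The actin control is named for acta1, a muscle actin. The muscle marker acta1a was itself lower in runzel (difference -0.78, limma adjusted p = 0.00313 with the paired fit). Whether this bears on the control was not tested. The ratio of 3′ to 5′ signal of this control, often read for RNA integrity, was 2.639, 2.033 and 2.784 on the runzel arrays. On the wildtype arrays it was 1.434, 1.373 and 1.737 (exact permutation p = 0.1, the smallest that 3 against 3 arrays allow). The same ratio of the GAPDH control went the other way, at 1.461, 1.535 and 1.507 on the runzel arrays. On the wildtype arrays it was 1.603, 1.585 and 1.528, with overlap (exact permutation p = 0.2). The 2 controls thus differed in direction. The part of marker content and of RNA integrity in the differences given here was not tested. In such tissue, fewer muscle cells and less of a transcript in each cell cannot be told apart. The labels do not tie an array to its clutch, and p-values measure only the spread between these samples.

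The comparison asked whether transcripts of the respiratory complexes differed between runzel and wildtype sibling muscle. No member passed, at any of its 91 tested probe sets, in either of the limma fits used. Without a block for the replicate number, 0 of 9301 tested probe sets were called higher or lower (0%), with 3 of 86 members at an unadjusted p under 0.05, against 4.97% of all tested genes. With arrays of the same number taken as pairs, 111 probe sets were called (1.19%), 67 higher (0.72%) and 44 lower (0.473%), and again no member was among them. The smallest adjusted p of a member was 0.977 without the block and 0.168 with it, the second for cox6b1. In the paired fit 14 of the 86 tested members (16.3%) had an unadjusted p under 0.05, against 13.1% of all tested genes. Those with such a p and a lower signal in runzel were 11 of the 86 (12.8%), against 6.55% of all tested genes. Neither share was computed for genes as bright as the members.

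Signals of the members were nevertheless slightly lower in runzel on the whole. The median log2 difference (runzel minus wildtype siblings, on log2 of signal plus 50) over 86 genes was -0.11, equal to -7.22% in signal, against a median of 0.0027 over the 6136 tested genes. Of the 86, 71 lay below 0 and 15 above, that is 82.6% below against 49.5% of all tested genes. In 31 members (36.0%) the runzel array was lower in all 3 pairs, against 17.7% of all tested genes, and in 5 members it was higher in all 3 pairs (5.81%, against 17.7%). All 3 runzel arrays lay below all 3 wildtype arrays in 14 members (16.3%, against 5% of all tested genes), and above them in 1 (1.16%, against 5.67%). The members were chosen with earlier results of these data known, so these shares describe the genes and carry no test.

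The size of any difference was bounded for most members. The 95% interval of the log2 difference, from limma without the block, lay within a 1.5-fold change either way for 76 of 86 members (88.4%), against 53.5% of all tested genes. The other 10 were ndufa4b, ndufaf2, ndufaf4, ndufaf5 and ndufaf8 of complex I, cox4i1l, cox4i2 and cox6b1 of complex IV, and the ATP synthase inhibitor genes atp5if1a and atp5if1b. The 2 shares are not of genes of like level, since the median percentile was 97.06 for members and 72.71 for all tested genes. A share for genes as bright as the members was not computed. Intervals of single members are given without adjustment for the number of genes.

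**Figure D1:**
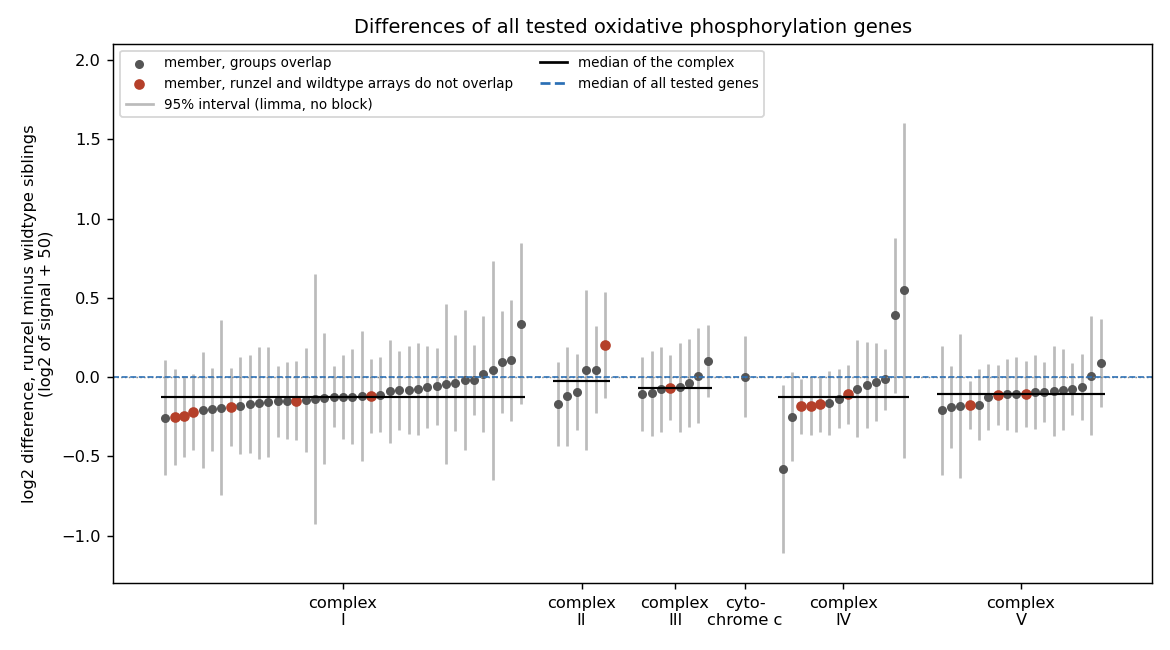
Log2 difference, runzel minus wildtype siblings, of the 86 tested members, sorted within each complex, with 95% limma intervals as vertical lines, the median of each complex as a black bar and the median of all tested genes as a dashed line. Most points lie a little below 0, and the widest intervals belong to cox4i1l and ndufaf8.

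A lower signal in runzel was also seen in other bright genes. When the 6136 tested genes were ordered by mean level and split into 10 equal bands, 67 of the 86 members fell in the brightest band. There the members had a median of -0.11 and the 547 other genes a median of -0.07. In that band 91.0% of members and 71.8% of the others lay below 0, and 40.3% of members and 38.2% of the others were lower in all 3 pairs. The groups did not overlap, with runzel lower, in 19.4% of members and 13.3% of the others. In the dimmest band, which held 0 members, the median of other genes was 0.05. Bright genes outside the pathway thus also had a median below 0, and the difference between them and the members was not tested. Under quantile normalization, which makes all arrays follow the same distribution of signal, the members' median was -0.04, and complex I, II, III, IV and V had medians of -0.09, -0.01, -0.01, -0.05 and -0.02.

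**Figure D2:**
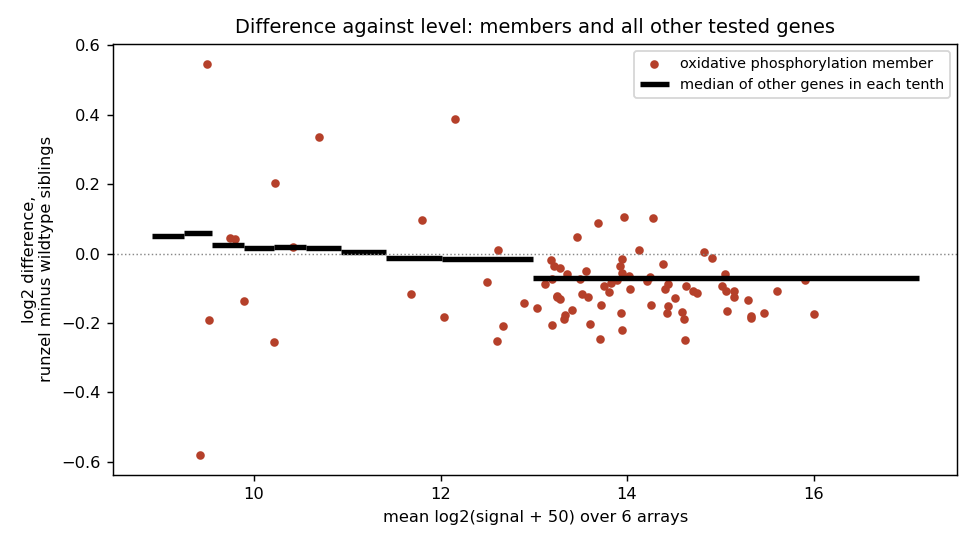
Log2 difference of each tested member against its mean log2 signal over the 6 arrays, with black bars for the median of all other tested genes in each of 10 bands of level. The bars run from 0.05 in the dimmest band to -0.07 in the brightest, where 67 of the members lie.

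The offset differed between pairs and between arrays. The median over members was -0.12 in pair 1, 0.0052 in pair 2 and -0.18 in pair 3, with 73, 40 and 74 of the 86 members below 0. For the 547 other genes in the brightest band it was -0.07, -0.05 and -0.08 in pairs 1, 2 and 3. All 5 complexes had a lower median in pairs 1 and 3 than in pair 2. Set against each gene's mean over the wildtype arrays, the members' median was -0.06, -0.06 and -0.18 on runzel arrays 1, 2 and 3, and 0.06, -0.07 and 0.003 on wildtype arrays 1, 2 and 3. Wildtype array 2 thus lay below runzel arrays 1 and 2, and the groups overlapped. Runzel array 3 was the lowest array for every complex. It also had the highest actin 3′ to 5′ ratio, but its GAPDH ratio, 1.507, lay below those of all wildtype arrays. Without runzel array 3 the members' median was -0.07, and without the whole of pair 3 it was -0.06. For complex IV the runzel arrays stood at -0.12, -0.08 and -0.16, all below the wildtype arrays at 0.04, -0.04 and 0.01, and the other complexes overlapped. Complex V overlapped only through runzel array 1, at -0.05991, which lay just above wildtype array 2, at -0.06266.

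**Figure D3:**
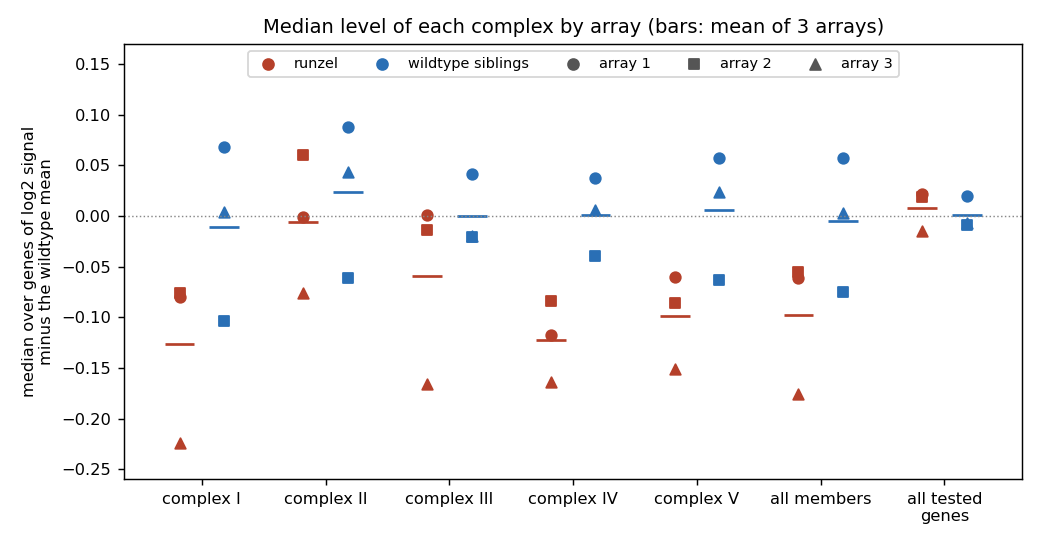
Median over the genes of each complex of log2 signal minus that gene's wildtype mean, on each of the 6 arrays, with runzel left of wildtype siblings and bars for the mean of 3 arrays. Runzel array 3 is lowest in every complex, and complex IV is the only one of the 5 complexes without overlap of the groups.

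**Figure D4:**
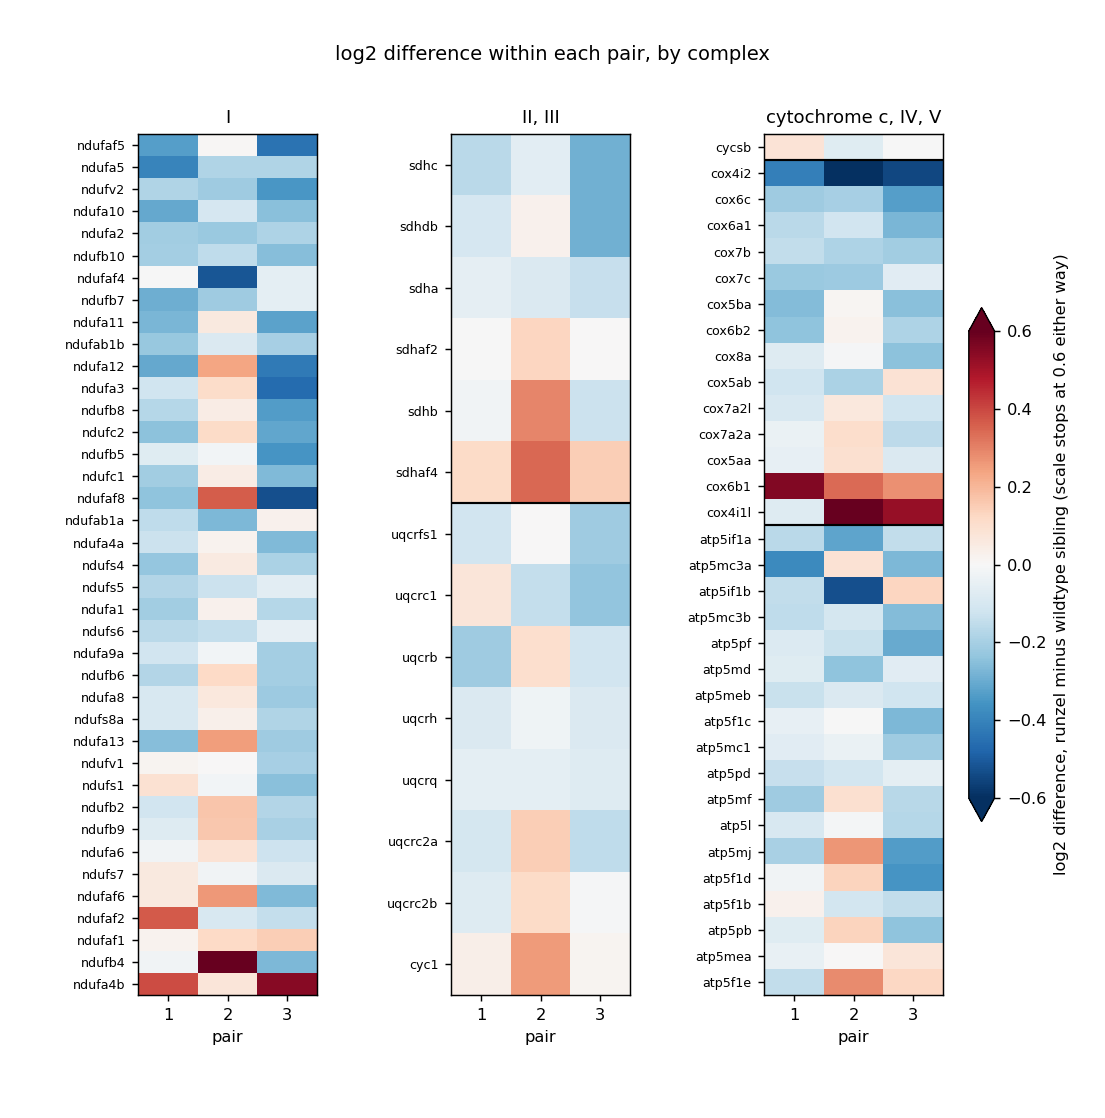
Log2 difference within each pair of arrays of the same number (columns) for every tested member (rows), grouped by complex and sorted by mean difference. Blue is lower and red higher in runzel, and pair 2 has more red than pairs 1 and 3.

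Complex I is the largest of the complexes. Its 39 genes, 6 of them assembly factors, had a median log2 difference of -0.12, with 34 below 0, and 12 (30.8%) were lower in all 3 pairs. That share was 17.7% for all tested genes and 38.2% for the other genes in the brightest band. The 12 genes of the matrix arm, which holds the flavin and the iron-sulfur clusters that carry electrons from NADH, all lay below 0, from -0.25 to -0.02. The 17 genes of the membrane arm, which surrounds the proton-pumping core, lay between -0.22 and 0.11, and 16 of them were below 0. The acyl carrier genes ndufab1a and ndufab1b, whose products sit in the complex and also serve fatty acid synthesis in mitochondria, had differences of -0.13 and -0.17.

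In the matrix arm the member with the most negative difference was ndufa5, an accessory subunit. Its signal was 5859, 5474 and 5628 on runzel arrays 1, 2 and 3, against 7722, 6201 and 6391 on the wildtype arrays. All runzel values lay below all wildtype values, with a log2 difference of -0.25 ± 0.124 (SD over 3 pairs, limma adjusted p = 0.977 without and 0.349 with the block). The next was ndufv2, which encodes an iron-sulfur subunit of the NADH-oxidising tip, at 13351, 12582 and 11007 on the runzel arrays, against 15121, 14584 and 14049 on the wildtype arrays. The groups did not overlap there either, with a difference of -0.25 ± 0.0911 (adjusted p = 0.265 with the block). Another probe set of ndufv2 read 12089.9, 11001 and 10953 on the runzel arrays, against 12823, 11897 and 11548 on the wildtype arrays, overlapped, and had a difference of -0.09. The 2 probe sets of ndufv2 thus shared a direction. Other genes of the electron path through this arm had differences of -0.06 for ndufs1, the largest iron-sulfur subunit, -0.06 for ndufv1, the NADH-binding subunit, and -0.02 for ndufs7, next to the ubiquinone site, and the accessory gene ndufa6 stood at -0.02.

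Among membrane-arm genes ndufa10 had the most negative value. It read 14944, 14407 and 14221 on the runzel arrays, against 18515, 15477 and 16914 on the wildtype arrays, without overlap, a difference of -0.22 ± 0.106 (adjusted p = 0.314 with the block). Its neighbours ndufb10 (-0.20) and ndufb7 (-0.19) were lower in all 3 pairs, and the groups overlapped for ndufb10 only. At the other end was ndufb4, at 16861, 20475 and 13004 on the runzel arrays, against 17101, 13457 and 15670.4 on the wildtype arrays. Its difference was 0.11 over all pairs, with pair 2 at 0.60 and pairs 1 and 3 at -0.02 and -0.27, and without pair 2 it was -0.14. The genes without overlap in complex I were ndufa5, ndufa10, ndufb5, ndufb7, ndufs6 and ndufv2, 6 of 39. That is 15.4%, against 5% of all tested genes and 13.3% of the other genes in the brightest band.

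The paralogues ndufa4a and ndufa4b lay on either side of 0. Mammalian NDUFA4 was named as a complex I subunit and is now placed with complex IV. Signal of ndufa4a was 35005, 35779 and 33581 on runzel arrays 1, 2 and 3, against 38294, 35288 and 40372 on the wildtype arrays, with overlap and a difference of -0.12. For ndufa4b it was 1613, 2138 and 1746 on the runzel arrays, against 1216, 2029.6 and 1182 on the wildtype arrays, higher in runzel in all 3 pairs although the groups overlapped. Its difference, 0.34 ± 0.24, was the highest of complex I and did not pass (adjusted p = 0.352 with the block, exact permutation p = 0.3).

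The assembly factors, which help to build complex I and leave it afterwards, split evenly, with 3 of 6 above 0 and 3 below. The lowest was ndufaf5, at 1068, 1136 and 929 on the runzel arrays, against 1356, 1129 and 1279.7 on the wildtype arrays, a difference of -0.25 with overlap (95% interval -0.62 to 0.11). The highest was ndufaf1, at 3839, 3693 and 3411 on the runzel arrays, against 3779, 3395 and 3079 on the wildtype arrays, a difference of 0.10 with overlap, while another probe set of this gene, at 1682, 1295 and 1595 on the runzel arrays, against 1884, 1451 and 1500.0 on the wildtype arrays, gave -0.08. The probe sets of ndufaf1 thus differed in sign, and both overlapped.

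The acyl carrier gene ndufab1a had 3 tested probe sets. The one with the highest signal, of a type that can cross-hybridise, read 11639, 8287 and 8749.5 on the runzel arrays, against 12947, 9996 and 8599 on the wildtype arrays and gave -0.13. The others read 8089.5, 10342 and 6825 on the runzel arrays, against 10182, 8211 and 6954 on the wildtype arrays, a difference of -0.01, and 8711, 11165 and 6989.6 on the runzel arrays, against 9272, 8518 and 8654 on the wildtype arrays, a difference of -0.0024. The groups overlapped at all 3, and 2 of them stood close to 0.

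Complex II, succinate dehydrogenase, also works in the tricarboxylic acid cycle and is encoded in the nucleus throughout. Its 6 tested genes had a median of -0.02, with 3 below 0 and 3 above. The 4 subunit genes alone had a median of -0.11. The flavoprotein gene sdha, whose product oxidises succinate, read 14094, 12651 and 13378 on runzel arrays 1, 2 and 3, against 14619, 13440.3 and 14741 on the wildtype arrays. It was lower in all 3 pairs by a difference of -0.09 ± 0.0438, and runzel array 1 exceeded wildtype array 2. The iron-sulfur gene sdhb read 11554, 12098 and 10564 on the runzel arrays, against 11727, 9877 and 11556 on the wildtype arrays, with overlap and a difference of 0.05. Of the membrane anchors, sdhc read 25279, 24772 and 20015 on the runzel arrays, against 28243, 25856 and 24417 on the wildtype arrays and had a difference of -0.17 ± 0.113, lower in all 3 pairs with overlap. The other anchor gene, sdhdb, read 10218, 10035 and 7843 on the runzel arrays, against 10972, 9865 and 9583 on the wildtype arrays, overlapped, and had a difference of -0.12.

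The assembly factor gene sdhaf4 was the one member whose runzel arrays all lay above the wildtype arrays. It read 1229, 1246 and 1218 on runzel arrays 1, 2 and 3, against 1133, 970.1 and 1093 on the wildtype arrays, a difference of 0.20 ± 0.125 (adjusted p = 0.613 with the block, exact permutation p = 0.1, the smallest possible). In yeast and mammals this factor protects the flavoprotein while the complex is put together. Another assembly factor gene, sdhaf2, needed to attach the flavin, read 627, 954 and 929 on the runzel arrays, against 627, 869 and 926 on the wildtype arrays, with a difference of 0.04 and overlap. The third, sdhaf3, was too dim to be tested, at 138, 64.3 and 146 on the runzel arrays, against 202, 128 and 109.6 on the wildtype arrays.

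Complex III, the cytochrome bc1 complex, had a median of -0.07 over 8 genes, with 6 below 0. Its redox subunits stood on either side of 0. The cytochrome c1 gene cyc1 read 20409.9, 22264 and 19193 on runzel arrays 1, 2 and 3, against 19938, 18638 and 18976 on the wildtype arrays. It was higher in all 3 pairs, with overlap between runzel array 3 and wildtype array 1, by a difference of 0.10 ± 0.134 (95% interval -0.12 to 0.33, adjusted p = 0.665 with the block). The Rieske iron-sulfur gene uqcrfs1 read 27871, 25546 and 23642 on the runzel arrays, against 30146, 25542 and 27403 on the wildtype arrays, with overlap and a difference of -0.11, the lowest of the complex. Core protein genes do not carry electrons and brace the complex from the matrix side. Of these uqcrc1 read 17139, 17135 and 14167 on the runzel arrays, against 16296, 18896 and 16708 on the wildtype arrays, overlapped, and had a difference of -0.10. Its partner uqcrc2b read 18267, 20353 and 15587 on the runzel arrays, against 19259, 18807 and 15657 on the wildtype arrays, with overlap and a difference of 0.01. The paralogue uqcrc2a had a probe set at 8833, 10604 and 8693 on the runzel arrays, against 9514, 9555 and 9656 on the wildtype arrays, a difference of -0.04, and another at 589.6, 328 and 561 on the runzel arrays, against 652, 469 and 453 on the wildtype arrays, a difference of -0.10. Both overlapped. Small subunit genes uqcrb, uqcrh and uqcrq lay close together, from -0.08 to -0.06. The groups did not overlap for uqcrh alone, 1 of 8 genes. That is 12.5%, against 5% of all tested genes and 13.3% of the other genes in the brightest band. Signal of uqcrh was 19035, 19479 and 18357 on the runzel arrays, against 20224, 19838 and 19519 on the wildtype arrays, a difference of -0.07 ± 0.0355.

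Cytochrome c, the soluble carrier between complexes III and IV, was represented by cycsb. Its signal was 32482, 28689 and 25971 on runzel arrays 1, 2 and 3, against 30664, 30133 and 25991 on the wildtype arrays. The groups overlapped, and the difference was 0.0037 with a 95% interval of -0.25 to 0.26.

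Complex IV, cytochrome c oxidase, held the members farthest from 0 in both directions. Its catalytic core is encoded by mitochondrial DNA, and the nuclear genes measured here encode the subunits around it. Its 14 genes had a median of -0.12, with 12 below 0, 6 (42.9%) lower in all 3 pairs and 4 (28.6%, against 5% of all tested genes) without overlap, all 4 with runzel lower. Of the other genes in the brightest band, 38.2% were lower in all 3 pairs and 13.3% did not overlap, with runzel lower. In the paired fit 7 of 14 had an unadjusted p under 0.05, against 13.1% of all tested genes. Of these cox4i2, cox6a1, cox6c, cox7b and cox7c were lower and cox4i1l and cox6b1 higher, and 0 passed after adjustment. The share with such a p was not computed for the other genes in the brightest band.

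The cox4 subunit binds nucleotides and exists as paralogues, of which mammalian COX4I2 is the form induced by low oxygen. Signal of cox4i2 was 440.4, 469 and 648 on runzel arrays 1, 2 and 3, against 602, 846 and 969.7 on the wildtype arrays. It was lower in runzel in all 3 pairs, with runzel array 3 overlapping wildtype array 1, and the difference of -0.58 ± 0.191 was the most negative of all members. The limma interval without the block was -1.11 to -0.05, and the gene did not pass (adjusted p = 0.977 without and 0.202 with the block, exact permutation p = 0.2). Its paralogue cox4i1l read 413, 869 and 1505 on the runzel arrays, against 439, 351 and 1031 on the wildtype arrays. Values spread widely within each group, pair 1 stood at -0.08 against 1.20 and 0.52 in pairs 2 and 3, and the difference of 0.55 ± 0.638 had an interval of -0.51 to 1.60. Both probe sets lay near the middle of the array's range, at percentile 50.77 for cox4i2 and 52.15 for cox4i1l of all probe sets. They were dim beside most members, whose median percentile was 97.06, and 50.77 was the lowest of any tested member.

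For the cox6b subunit, which faces the cytochrome c side, cox6b1 read 4473, 6499.5 and 4784 on runzel arrays 1, 2 and 3, against 3032, 5124 and 3952 on the wildtype arrays. It was higher in runzel in all 3 pairs, although wildtype array 2 exceeded runzel arrays 1 and 3, and it had the smallest paired p of all members (difference 0.39 ± 0.147, unadjusted p = 0.00537, adjusted p = 0.168). Its paralogue cox6b2 read 36809, 40785 and 37156 on the runzel arrays, against 43563, 40156 and 42269.9 on the wildtype arrays, with overlap through runzel array 2, and had a difference of -0.14. The log2 ratio of cox6b1 to cox6b2 within an array averaged -2.87 on the runzel arrays (SD 0.204) and -3.39 on the wildtype arrays (SD 0.433), a difference of 0.52 ± 0.246 over pairs with overlapping groups (exact permutation p = 0.2). The ratio of cox4i1l to cox4i2 differed by 1.13 ± 0.827 (exact permutation p = 0.2), and that of ndufa4b to ndufa4a by 0.46 ± 0.382 (exact permutation p = 0.3). The groups overlapped for each of the 9 paralogue ratios computed, and the adjusted p was 0.9 for every one, in a design whose smallest unadjusted p is 0.1. In the other 6 ratios, of cox5a, cox7a, c-ring and inhibitor genes, the difference lay between -0.03 and 0.08.

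**Figure D5:**
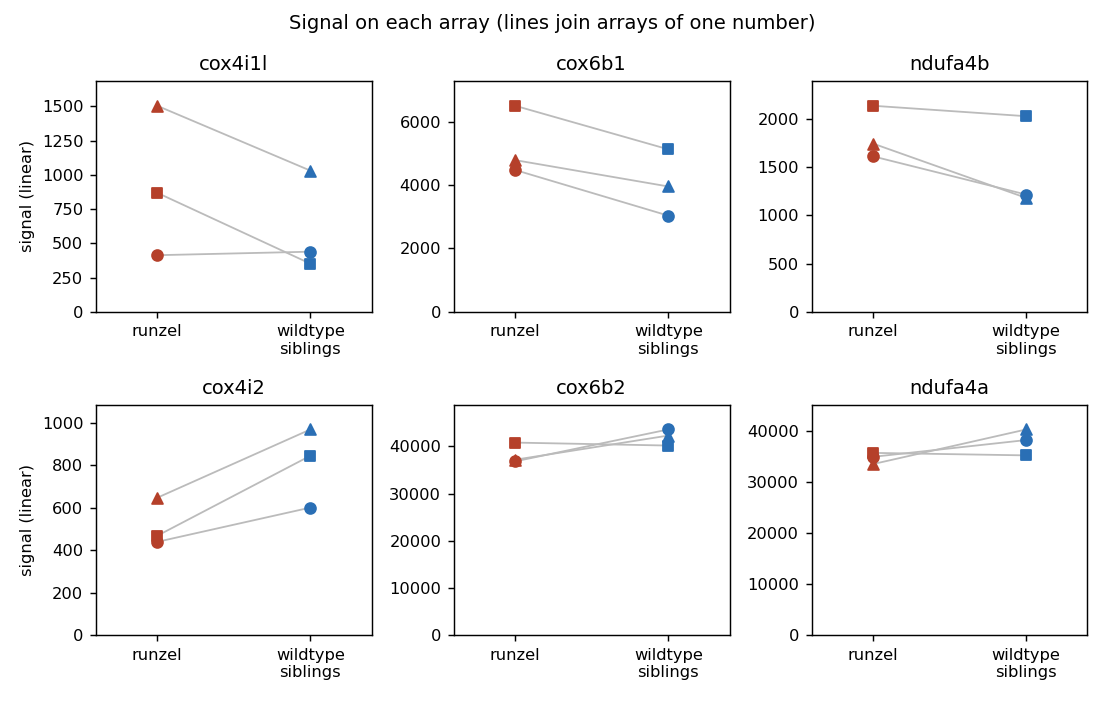
Signal on each array of 3 paralogue pairs (linear axis from 0, its range set for each gene), runzel left and wildtype siblings right, with lines joining arrays of the same number. Every line falls toward wildtype for cox6b1 and ndufa4b and rises toward wildtype for cox4i2, and cox4i1l has 1 line nearly level.

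The remaining complex IV genes lay between -0.25 and -0.01. The lowest was cox6c, at 25087, 24867 and 19533 on runzel arrays 1, 2 and 3, against 29128, 28593 and 24535 on the wildtype arrays, lower in all 3 pairs with overlap, a difference of -0.25 ± 0.0697 (adjusted p = 0.192 with the block). The groups did not overlap for cox6a1, cox7b, cox7c and cox8a. Of these cox6a1, the form of subunit 6a found in most tissues of mammals, read 38164, 39937 and 37301 on the runzel arrays, against 42764, 43290.3 and 45119.5 on the wildtype arrays and had a difference of -0.18 ± 0.081. Signal of cox7b was 40569, 36564 and 39055 on the runzel arrays, against 44989, 41511 and 45130.1 on the wildtype arrays, with nearly the same difference in each pair (-0.18 ± 0.0298). For cox7c it was 42826, 40572 and 44428 on the runzel arrays, against 49974, 47216 and 46639.6 on the wildtype arrays, a difference of -0.17 ± 0.0869, and for cox8a the difference was -0.11 ± 0.121. None of the 4 passed (adjusted p from 0.279 to 0.594 with the block). The cox5 genes, whose products form part of the matrix side, all overlapped. Signal of cox5aa was 30659.9, 32175 and 29122 on the runzel arrays, against 31752, 30118 and 30923 on the wildtype arrays, a difference of -0.01, and signal of cox5ab was 9614, 7816 and 9912 on the runzel arrays, against 10465, 8924 and 9316 on the wildtype arrays, a difference of -0.07, while cox5ba had -0.17. Of the cox7a genes, cox7a2a read 22395, 22627 and 18780.3 on the runzel arrays, against 23022, 21050.0 and 20924 on the wildtype arrays, a difference of -0.03. Its relative cox7a2l, whose mammalian counterpart joins complexes III and IV into supercomplexes, read 12601, 11552 and 11198 on the runzel arrays, against 13484, 11046 and 12151 on the wildtype arrays, a difference of -0.05. The groups overlapped for both.

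Complex V, the ATP synthase, had a median of -0.11 over 18 genes. Of these 16 lay below 0, 9 (50%) were lower in all 3 pairs and 0 were higher in all 3. The share lower in all 3 pairs was 17.7% for all tested genes and 38.2% for the other genes in the brightest band. The groups did not overlap for atp5mc3b, atp5meb and atp5pd, 3 of 18. That is 16.7%, against 5% of all tested genes and 13.3% of the other genes in the brightest band. Complex V held 1 member with an unadjusted paired limma p under 0.05, atp5mc3b. That is 5.56%, against 13.1% of all tested genes.

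Genes of the catalytic F1 head had differences between -0.11 and 0.09. The beta subunit gene atp5f1b, whose product holds the catalytic sites, read 60050.1, 60967 and 57894 on runzel arrays 1, 2 and 3, against 59008, 65732 and 64089 on the wildtype arrays. The groups overlapped through wildtype array 1, the difference was -0.08 ± 0.0902, and the interval of -0.24 to 0.09 was among the narrowest of the members. Of the central stalk, atp5f1c and atp5f1d had differences of -0.11 and -0.08, and atp5f1e, at 12242, 13849 and 14629.8 on the runzel arrays, against 13549.7, 11374 and 13429 on the wildtype arrays, had the highest of the complex, 0.09, with pair 1 below 0 and pairs 2 and 3 above. Peripheral stalk genes hold the head still against the turning ring. Their differences were -0.06 for atp5pb, -0.10 for atp5pd and -0.17 for atp5pf.

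The ring of c subunits, which turns as protons pass, is made in mammals from several genes for the same mature protein. Signal of atp5mc3b was 62937, 62641 and 60447 on runzel arrays 1, 2 and 3, against 70042, 67321 and 72515 on the wildtype arrays. All runzel values lay below all wildtype values. The ratio was 0.887 and the difference -0.17 ± 0.081, which missed the threshold (adjusted p = 0.977 without and 0.262 with the block, exact permutation p = 0.1). Its relatives atp5mc3a, at 21726, 24303 and 24128 on the runzel arrays, against 28306, 22892 and 29072 on the wildtype arrays, and atp5mc1, at 53471, 50011 and 41851 on the runzel arrays, against 56120.2, 51468 and 48511 on the wildtype arrays, overlapped and had differences of -0.19 and -0.11. All 3 c-ring genes lay below 0, as did 91.0% of members and 71.8% of other genes in the brightest band. In pair 2 atp5mc3a stood above 0 (0.09).

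Small membrane subunit genes, among them atp5md and atp5l, lay between -0.13 and 0.01, and atp5meb, lower in all 3 pairs without overlap, had a difference of -0.11 ± 0.0249. Of the pair encoding subunit e, atp5mea read 5822, 7410.1 and 5652 on the runzel arrays, against 6014, 7401 and 5375 on the wildtype arrays, with overlap and a difference of 0.01. The inhibitor genes encode a small protein that stops the ATP synthase from running backwards. Signal of atp5if1a was 7472, 5504 and 5296 on the runzel arrays, against 8352, 6876 and 5878 on the wildtype arrays, lower in all 3 pairs with overlap, a difference of -0.21 ± 0.0949, the lowest of the complex. Signal of atp5if1b was 4571, 2847 and 4521 on the runzel arrays, against 5062, 4129.5 and 4129.8 on the wildtype arrays, with overlap, and its difference of -0.18 turned to 0.04 without runzel array 2.

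Other genes of mitochondrial energy metabolism were read from whole lists. From these lists every gene found by symbol on the array and bright enough to be tested was counted. None of their tested members passed in the paired or the unpaired fit, against 1.19% of all tested probe sets in the paired one. One list covered the tricarboxylic acid cycle, pyruvate dehydrogenase and related enzymes, among them aco1, mdh1aa, mdh1ab, pcxa and pck2. Of its 28 genes 25 were found on the array, and the 23 tested had a median of -0.08, with 16 below 0. The smallest limma adjusted p, 0.072 with the block, was that of mdh1aa. This gene, for a cytosolic malate dehydrogenase, read 40642, 28529 and 39613 on the runzel arrays, against 45899, 42277 and 49778 on the wildtype arrays, without overlap and with a difference of -0.36. The citrate synthase gene cs read 33745, 32332 and 31539.6 on the runzel arrays, against 30646, 33919.9 and 35912 on the wildtype arrays, with overlap and a difference of -0.04. This is a transcript level, and neither enzyme activity nor mitochondrial content was measured. Of 29 genes listed for electron entry and carriers 20 were found, and the 19 tested had a median of -0.03 with 12 below 0. In 3 of them, coq8aa, slc25a3b and vdac2, all runzel arrays lay below all wildtype arrays. That is 15.8%, against 5% of all tested genes and 13.3% of genes outside the complexes in the brightest band. Not all of this list lay in that band. Its median percentile of level was 91.47, and coq8aa stood at 83.38. A share for genes of like level was not computed.

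Lists of genes that build or maintain the system had medians above 0 over all pairs, though not in every pair. Assembly factors counted with the complexes stand outside these lists. The 6 of complex I had a median of -0.06, and the 2 tested of complex II a median of 0.12. The list for assembly of the complexes, other than those named ndufaf or sdhaf, held 35 genes, of which 19 were found on the array. The 18 tested had a median of 0.05 with 7 below 0, and the 56 tested genes of the mitochondrial ribosome a median of 0.05 with 22 below 0. Of 17 regulators of mitochondrial number listed, 11 were found on the array, and the 8 tested had a median of 0.10 with 1 below 0. Of these pprc1, a coactivator related to PGC-1, read 865, 779 and 1462 on the runzel arrays, against 579.8, 553 and 1083 on the wildtype arrays and was higher in all 3 pairs with overlap, a difference of 0.47 (adjusted p = 0.232 with the block). The transcription factor gene nrf1 and the mitochondrial DNA packaging gene tfam had differences of 0.02 and 0.01. In pair 2 the medians were 0.16 for the assembly list and 0.16 for the mitochondrial ribosome, in pair 1 they were -0.08 and -0.02, and in pair 3 -0.08 and 0.0029. The regulators had medians of 0.15 in pair 1, 0.20 in pair 2 and -0.09 in pair 3, where 6 of the 8 lay below 0. Median percentiles of level were 78.33 for the assembly list, 79.25 for the mitochondrial ribosome and 70.73 for the regulators. For the members the median percentile was 97.06. In bands of level, medians of genes outside the complexes ran from 0.05 in the dimmest to -0.07 in the brightest. Neither the part of level in the medians of these lists nor their difference from those of the complexes was tested. The 12 skeletal muscle markers had a median of -0.08, with 10 below 0. In the paired fit 1 passed as lower, the actin gene acta1a (difference -0.78, limma adjusted p = 0.00313). The desmin gene desma passed as higher (0.87, adjusted p = 0.0106), although its groups overlapped. Over all tested probe sets 0.473% passed as lower and 0.72% as higher. Without the block neither gene passed (limma adjusted p = 0.772 for acta1a and 0.977 for desma).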

How the data were processed

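Every array's deposited column holds intensity on a linear scale, with a value for each probe set. Scanning used a GeneChip Scanner 3000 and quantification the GeneChip Operating Software 1.2 with its defaults, per the labels. How probes were summarised: not given in the sources used here. A 2% trimmed mean came to 1500.42 to 1500.46 on all 6 arrays, so values were kept as deposited and analysed as log2 of signal plus 50, a scale that understates changes of dim genes. Precision is limited by having 3 arrays a group.

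Of 15617 probe sets, 115 controls were left out. Symbols were those of the platform annotation, with 10795 probe sets having 1 symbol, 135 several and 4572 none, and all 94 member probe sets kept their symbol in the RefSeq gene table. Probe sets with a mean under the 40th percentile (8.904) were not tested, leaving 9301. Where a gene had several tested probe sets, the one with the highest mean stood for it, giving 6136 genes. Runzel was set against wildtype siblings in limma 3.58.1 (R 4.3.3, intensity trend, two-sided, Benjamini-Hochberg over 9301, threshold 0.05), primarily without a block. Deviations from group means correlated at 0.551, 0.389 and 0.526 between arrays of the same number, which were therefore taken as pairs in a second fit. This pairing comes from the data, not from a label. Alternatives varied the pseudocount, the filter, normalization, the block, the trend, the probe set used for a gene and the arrays included. The code was tested on simulated data.

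Named genes are, per complex, the 2 highest and 2 lowest differences, all of complex II, genes with several tested probe sets and paralogues; others were chosen after their values were seen. Members and lists were chosen with earlier results of these data known.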

Additional observations from a re-analysis of the deposited data

How the results depend on the processing

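No member probe set passed in limma under any refit. Their smallest limma adjusted p over all refits was 0.128, for cox6b1 under the replicate block without pair 3. With all arrays kept it was 0.168 under the replicate block, 0.251 under a random replicate block and 0.269 under the replicate block without the intensity trend. Thus 0 passed in these fits, and the block changed no call of a member. Over all tested probe sets these fits called 111, 19 and 3, against 0 without a block, and the replicate block called 34, 29 and 149 without pairs 1, 2 and 3. The median over all members ran from -0.1621 under median centring, which moved the median of all tested genes to -0.05, to -0.04004 under quantile normalization. For complex V quantile normalization gave -0.01936. With an array or a pair left out, the medians ran from -0.1507 to -0.05528 for all members, -0.1892 to -0.05473 for complex I, -0.08558 to 0.01236 for complex II, -0.09656 to -0.00233 for complex III, -0.1529 to -0.09985 for complex IV and -0.1478 to -0.05726 for complex V. Called members numbered 0 in each of these refits. The value nearest 0 came without pair 3 for all members and complexes I and V, without runzel array 3 for complex III and without pair 1 for complex IV, while complex II changed sign without pair 3 or wildtype array 3. The cause was not tested. With assembly factors left out and the ndufa4 pair counted in complex IV, chosen after seeing the data, complex II stood at -0.1073 and complex IV at -0.1171. No intensity filter, or one at the 60th percentile, changed which genes were tested and put complex II at -0.093.

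Among 39 named members, none of which passed under any setting, some with differences near 0 changed sign. Under median centring atp5mea (-0.04492), cycsb (-0.05029), sdhaf2 (-0.01019), sdhb (-0.007017) and uqcrc2b (-0.04361) turned negative. Under quantile normalization cox5aa (0.06977) and cox7a2a (0.06255) turned positive. With an array left out, ranges crossed 0 for atp5if1b (-0.2966 to 0.04012), atp5mea (-0.1131 to 0.1349), cox5aa (-0.04941 to 0.0224), cox5ab (-0.1384 to 0.03201), cox7a2a (-0.0776 to 0.0565), cox7a2l (-0.1207 to 0.02258), cycsb (-0.07979 to 0.0813), ndufab1a (-0.2819 to 0.02746), ndufb4 (-0.05033 to 0.2761), sdhaf2 (-0.1175 to 0.2271), sdhb (-0.0317 to 0.1009), sdhdb (-0.1893 to 0.0004869), uqcrc2a (-0.1272 to 0.01541) and uqcrc2b (-0.0832 to 0.1124). In the replicate block without pair 1, the sign changed for cox5aa (0.00436) and cycsb (-0.03592). In the replicate block without pair 2, the sign changed for atp5f1e (-0.01139), ndufb4 (-0.1443), sdhb (-0.07518) and uqcrc2b (-0.04128). In the replicate block without pair 3, the sign changed for atp5mea (-0.02236), cox5aa (0.02238), cox7a2a (0.03213) and uqcrc2a (0.02145). The cause was not tested.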

Other observations

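Probe sets that carry the symbols of several genes were named for none of them and stand outside the counts above. One, annotated to ndufa9b and ndufa9a of complex I, had a log2 difference of -0.04 with overlapping groups (limma adjusted p = 0.928 with the block). Another, annotated to atp5fa1, for the alpha subunit of the ATP synthase head, and to gcdha, of lysine breakdown, read 39082, 41740.1 and 37452 on the runzel arrays, against 39981, 40244 and 44432 on the wildtype arrays. Its groups overlapped, and the difference was -0.08 (adjusted p = 0.731 with the block). A second probe set of ndufb6 and one of atp5l were too dim to be tested, at 39.4, 227 and 184 on the runzel arrays, against 72.9, 34.8 and 114 on the wildtype arrays for ndufb6 and 23, 33.4 and 10.5 on the runzel arrays, against 25.6, 7.7 and 10.9 on the wildtype arrays for atp5l, while their bright probe sets gave differences of -0.09 and -0.09.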
